A study of Mus musculus with 32 samples.

Results

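Oligodendrocyte lineage genes were followed in neural stem cells (NSCs) of the mouse ventricular-subventricular zone (vSVZ) exposed to IFN-β. The set has 8 members, named for their known place in the lineage: the transcription factors Olig1, Olig2, Sox10, Nkx2-2 and Myrf and the surface proteins Pdgfra, Cspg4 and Gpr17. All 8 were found by Ensembl identifier among the 23035 genes of the footprint tables. The cells came from C57BL/6 mice of 8 to 12 weeks, for which the labels name no engineered allele, and were grown ex vivo. They received either vehicle or IFN-β, and were harvested after 2 h or 14 h. From each of the 4 combinations there were 4 libraries of ribosome footprints and, made from the same lysates, 4 of total RNA, giving 32 libraries. The 2 h libraries carry the numbers 2, 3, 5 and 6, the 14 h libraries 1 to 4. Every culture, vehicle included, was also given cycloheximide before lysis, which halts elongating ribosomes. The study describes the replicates as biological. How many animals stand behind a culture is not given in the sources used here.

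Cells of this lineage pass from a multipotent stem cell through a progenitor that divides to a cell that wraps axons in myelin. Olig2 sets the lineage up and, with its neighbour and paralog Olig1, belongs to the basic helix-loop-helix factors. Both are also expressed in progenitors that are not yet committed, including NSCs in culture. Nkx2-2 and Sox10 act further along and Myrf drives the myelin genes. Pdgfra, the receptor for platelet-derived growth factor, and Cspg4, the proteoglycan NG2, are the classical surface markers of the progenitor, and Gpr17 marks the cell as it leaves that stage. In the adult vSVZ most stem cells make neurons, and a smaller share makes oligodendrocytes.

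Olig1 and Olig2 lie close together on chromosome 16 and code for related proteins, so whether their short footprints can be told apart decides what their counts mean. The stretch around their longest shared run of bases, taken from the GRCm38 genome and within the CDS on the plus strand, is shown here with that run in capitals.
Olig1, chr16:91270093-91270259: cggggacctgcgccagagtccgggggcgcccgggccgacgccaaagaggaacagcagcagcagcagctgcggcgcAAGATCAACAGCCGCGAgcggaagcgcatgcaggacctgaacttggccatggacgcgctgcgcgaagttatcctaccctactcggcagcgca
Olig2, chr16:91226658-91226824: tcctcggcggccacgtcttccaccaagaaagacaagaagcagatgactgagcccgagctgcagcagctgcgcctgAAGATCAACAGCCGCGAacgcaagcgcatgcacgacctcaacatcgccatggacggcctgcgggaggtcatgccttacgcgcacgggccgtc
The run is 17 bases long and lies in the part that codes for the DNA-binding helix-loop-helix domain, where 93 of the 167 aligned bases (55.7%) were identical. Footprints were cut from the gel at 26 to 34 nt. No stretch of 26 bases of the Olig1 CDS was found in the annotated transcripts of any other gene, on either strand. For Olig2 1.17% of such stretches were shared, with Olig3 and Bhlhe23 among others. Olig1 and Olig2 thus shared no exact stretch as long as the shortest footprint cut from the gel. Reads made shorter by trimming, and alignments with mismatches, were not covered by this search. How well mapped reads of the 2 genes were kept apart was therefore not tested.

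Of the other members, Myrf, Cspg4 and Gpr17 had no stretch of 26 bases in common with another gene. Sox10 shared 3.2% with other SOX genes such as Sox8 and Sox9. Nkx2-2 shared 4.66% with NKX2 relatives, and 32.1% of its stretches of 26 bases were found, on the opposite strand, in transcripts of the antisense gene Nkx2-2os. The strand setting of the counting is not given in the sources used here, so Nkx2-2 counts may hold reads of Nkx2-2os. Olig1 overlaps Gm15966 on the other strand as well, but no stretch of 26 bases of the Olig1 CDS was found in its transcripts. Total RNA of Olig1, counted over the whole gene, may still hold its reads. Duplicate reads had been removed before counting. Olig1, whose CDS is a single segment of 780 bp, kept between 5.18 and 22.4 footprints per base of CDS, and what the removal took from so dense a CDS was not tested.

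Depth set what could be measured. Total counts per footprint library ranged from 4956144 to 9361609 at 2 h and from 2956297 to 10505108 at 14 h. Total RNA libraries held between 3992402 and 7877753 counts at 2 h and between 1370008 and 2737111 at 14 h. Levels are given as CPM, a gene's count per 1000000 counts of its library after TMM scaling, done within each time point and kind of library, so that levels at 2 h and 14 h are set side by side but were not tested against each other. Such levels are relative to the other genes of a library, so a change in footprints shared by most genes is not seen in them. The paper reports that global translation rose mildly after short exposure to IFN-β and fell strongly after long exposure. The differences given here therefore do not measure footprints per cell. Intervals cover counting error or the spread between libraries as stated. The cells carried NSC markers, with Vim at 4656 CPM and Fabp7 at 3861 CPM on average over the 16 footprint libraries. Among the myelinating genes Mog had 0 to 1 footprint and Mag 0 to 2 footprints in any library. The list of 22 such genes still summed to 313 to 966 CPM per footprint library. Cnp (230 CPM on average) and Sirt2 (89.8 CPM) were its highest. A list of oligodendrocyte progenitor genes without the members, 16 of them in the footprint counts, summed to 5468 to 10206 CPM. Ptprz1 (4972 CPM on average) and Bcan (703 CPM) were its highest, so the sum rests largely on Ptprz1. Matn4, Neu4 and Nkx6-1 had no footprint in some groups. The sum was not tested as a measure of cell type. Of 9 microglial markers, 4 to 7 had no footprint in a given group, and the summed CPM of the list was 11.8 to 45.5. The libraries numbered 3 at 2 h stood apart from the others of that time, with a summed level of 6 astrocyte markers of 776 CPM with vehicle and 1139 CPM with IFN-β, against 235 to 353 CPM in the other 2 h libraries.

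Per length of CDS the members fell into separate ranges. In vehicle libraries at 2 h Olig1 had 2125 ± 184 (SD, n = 4) footprint CPM per kb of CDS and Olig2 had 740 ± 84.6 (SD, n = 4), at the 99.8th and 99.0th percentile of the 15150 genes with a footprint in these libraries. No library of the one overlapped with any of the other. Nkx2-2 (23.9 ± 7.23) and Cspg4 (19.6 ± 3.65) followed at the 64.1th and 59.6th percentile and overlapped in range. Pdgfra (1.86 ± 1.58), Sox10 (1.04 ± 0.64), Myrf (0.84 ± 0.17) and Gpr17 (0.81 ± 0.78) were lowest, all 4 between the 21.8th and the 26.8th percentile and overlapping with each other. The order at 14 h was Olig1, with 1804 ± 199 CPM per kb (SD, n = 4), Olig2 with 862 ± 40.7, Cspg4 with 26.2 ± 2.41 and Nkx2-2 with 23.3 ± 2.09, the last 2 again overlapping. Below these came Myrf with 0.83 ± 0.14, Pdgfra with 0.72 ± 0.25 and Sox10 with 0.46 ± 0.25, while Gpr17 was reduced to 1 footprint in the 4 vehicle libraries together.

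**Figure D1:**
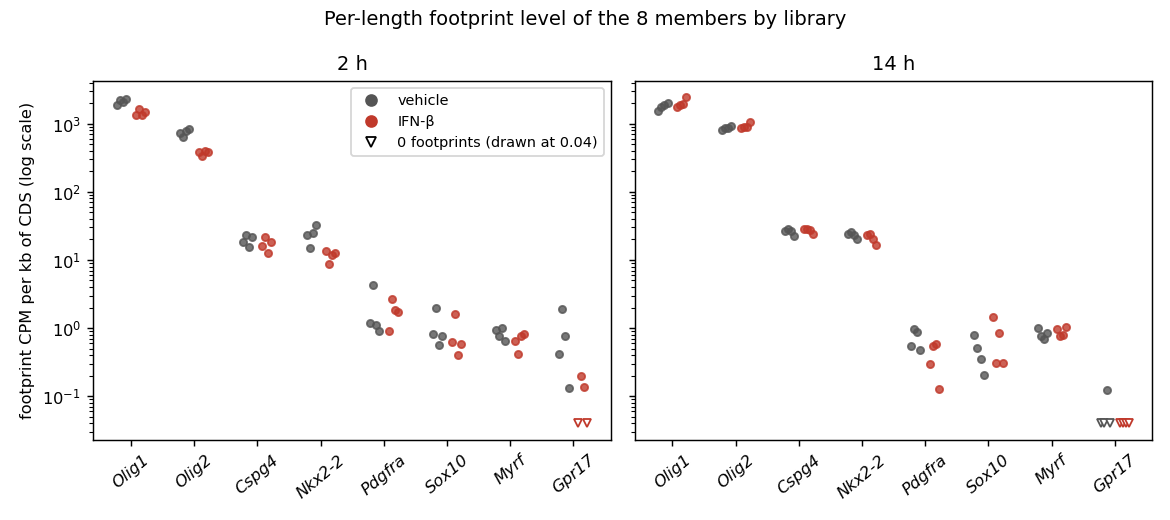
Footprint level of the 8 members per kb of CDS, in CPM per kb on a log scale, with a point for each library (grey vehicle, red IFN-β) and open triangles for libraries with 0 footprints, drawn at 0.04. Olig1 and Olig2 sat far above the rest at both times, Cspg4 and Nkx2-2 shared a middle range, and the other 4 members lay between 0 and 4.23 CPM per kb.

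After 2 h of IFN-β the footprints of the transcription factors Olig1, Olig2 and Nkx2-2 fell, and those of no tested member rose. Over the summed counts after scaling, the vehicle level was 2.00 times that with IFN-β for Nkx2-2, 1.95 times for Olig2 and 1.47 times for Olig1, of which Nkx2-2 was by far the least abundant. Log2 differences are IFN-β minus vehicle, from edgeR's quasi-likelihood test on every gene that reached 10 counts in 4 or more libraries, and a gene was called at a Benjamini-Hochberg adjusted p under 0.05. Of the 8 members 6 could be tested and 3 were called, all lower. Among all 12104 genes tested 7.25% were called and 2.01% were called lower. In bulk cultures fewer cells that express a gene and fewer footprints per cell cannot be told apart.

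Olig2 (ENSMUSG00000039830, chromosome 16, 91225457 to 91228677) had 703, 612, 748 and 806 CPM in vehicle libraries 2, 3, 5 and 6 and 372, 323, 384 and 375 CPM in the IFN-β libraries of the same numbers. The groups were far apart, the highest IFN-β library lying well below the lowest vehicle library. This amounted to a log2 difference of -0.98 (standard error 0.11, adjusted p = 3.87e-04 in edgeR). These values rest on 4398 to 6711 footprints per vehicle library and 1596 to 2984 per IFN-β library. Between libraries of the same number the log2 ratio was -0.92, -0.92, -0.96 and -1.10, lower in 4 of 4.

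Olig1 (ENSMUSG00000046160, chromosome 16, 91269772 to 91271933) had 1478, 1718, 1621 and 1814 CPM with vehicle and 1059, 1266, 1042 and 1173 CPM with IFN-β. Again no IFN-β library reached the lowest vehicle library. Olig1 fell by 0.55 on the log2 scale (standard error 0.10, adjusted p = 0.0115 in edgeR). Dropping IFN-β replicate 2 raised the adjusted p to 0.0503 and dropping IFN-β replicate 5 raised it to 0.0595, each with a log2 difference of -0.51.

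Nkx2-2 (ENSMUSG00000027434, chromosome 2, 147177546 to 147194243) is a homeodomain factor of the committed progenitor. It had 22.9, 14.8, 24.9 and 32.2 CPM with vehicle and 13.5, 8.71, 11.7 and 12.5 CPM with IFN-β, on 106 to 237 and 43 to 108 footprints per library. The groups did not overlap, although the lowest vehicle library, number 3, came close to the highest IFN-β library. Nkx2-2 fell by 1.02 on the log2 scale (standard error 0.23, adjusted p = 0.0288 in edgeR). The call was the least firm of the 3, since the adjusted p rose above the threshold with limma-voom (0.0527), when any single IFN-β library or vehicle replicate 2, 5 or 6 was left out (0.0552 to 0.0982), while the log2 difference stayed between -1.19 and -0.84.

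Olig1, Olig2 and Nkx2-2 were also the 3 members of 8 whose IFN-β libraries all lay below all vehicle libraries at 2 h, which held for 5.14% of all genes tested. Leaving out both libraries numbered 3, an alternative chosen after seeing the data, gave log2 differences of -0.59 for Olig1, -0.998 for Olig2 and -1.08 for Nkx2-2, each still called in edgeR (adjusted p = 5.37e-04, 1.11e-06 and 3.15e-04). In these remaining libraries the summed astrocyte markers stood at 235 to 273 CPM with vehicle and 289 to 353 CPM with IFN-β. Over all 2 h libraries 0 of 5 astrocyte markers tested (0 also at an unadjusted p under 0.05) and 1 of 10 NSC markers (3 at an unadjusted p under 0.05) were called by edgeR, the latter being Nr2e1, a nuclear receptor of NSCs, at -0.86. Of all genes 7.25% were called in this fit. The library number as a block allows for deviations that libraries of a number share, and that fit called 29.2% of all genes. In it 2 of 5 astrocyte markers were called higher, Gfap by 2.82 and Aqp4 by 0.27. Of the NSC markers Sox9 (-0.34), Egfr (-0.54), Nr2e1 (-0.86) and Pax6 (-0.50) were called lower and Vim (0.32) higher. At 14 h 4 of 10 NSC markers were called lower, where 26.3% of all genes were. The part of these shifts in the members' values was not tested.

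**Figure D2:**
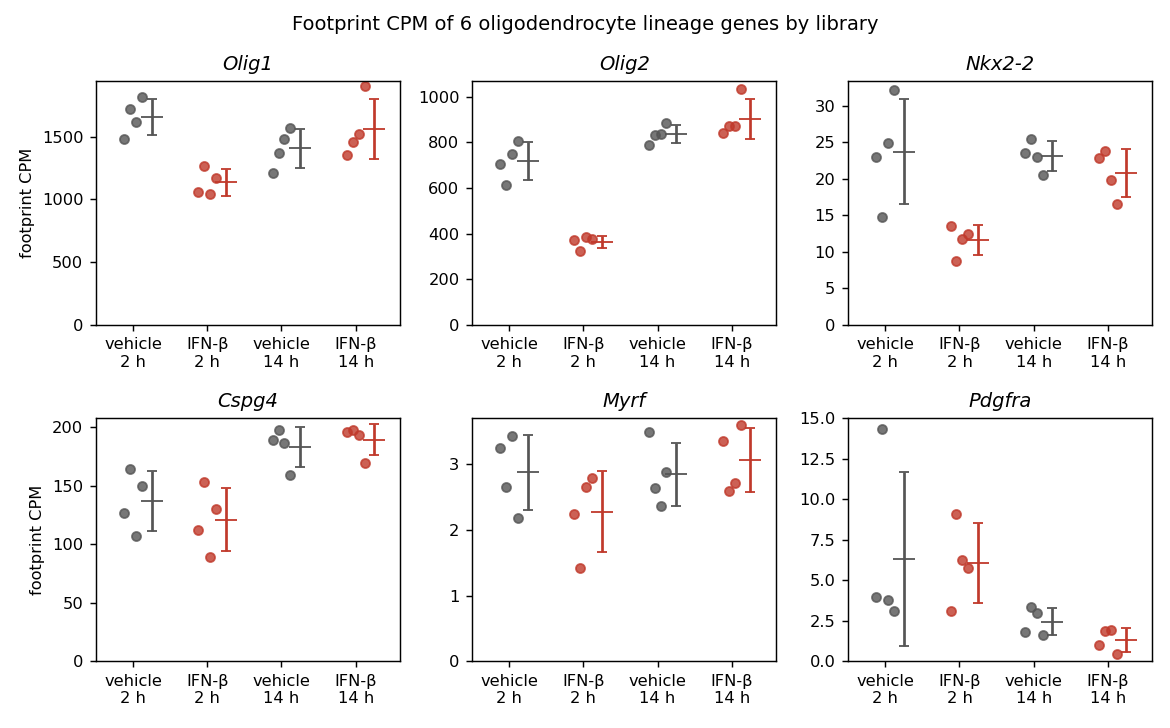
Footprint CPM of the 6 members that could be tested, by group, with a point for each library and the mean ± SD (n = 4) beside the points. At 2 h the IFN-β points of Olig1, Olig2 and Nkx2-2 lie below every vehicle point, whereas at 14 h the groups overlap for all 6 genes. The vertical scale differs between genes and starts at 0.

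The surface markers of the progenitor, Cspg4 and Pdgfra, were not called at 2 h in the fit without a block. Cspg4 (ENSMUSG00000032911, chromosome 9, 56865033 to 56899870) had 127, 164, 107 and 150 CPM with vehicle and 112, 153, 89.4 and 130 CPM with IFN-β. The groups overlapped, yet each IFN-β library lay below the vehicle library of its number, with log2 ratios between -0.25 and -0.10. The log2 difference was -0.18 (standard error 0.18, adjusted p = 0.742 in edgeR). Footprint libraries of the same number deviated from their group means in the same way. When the fit took up the number as a block, Cspg4 was called lower at the same value of -0.18 (adjusted p = 0.00643), in a fit that called 29.2% of all genes.

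Pdgfra (ENSMUSG00000029231, chromosome 5, 75152292 to 75198215) had 3.98, 14.3, 3.81 and 3.13 CPM with vehicle and 3.12, 9.11, 6.27 and 5.75 CPM with IFN-β. The libraries numbered 3 were the highest of both groups, and the ratio was lower in 2 of 4 numbers and higher in 2. The log2 difference was -0.07 with a 95% interval of -1.26 to 1.12. It was 0.44 without the libraries numbered 3, and neither value was called. Myrf (ENSMUSG00000036098, chromosome 19, 10208272 to 10240748), with 7 to 31 footprints per library, had a log2 difference of -0.32 (95% interval -0.91 to 0.26) and was not called.

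Sox10 and Gpr17 had too few counts for a test at either time. Sox10 (ENSMUSG00000033006, chromosome 15, 79154908 to 79165240) had 45 footprints in the vehicle libraries at 2 h and 27 in the IFN-β libraries, a ratio of vehicle to IFN-β of 1.38 after scaling (95% counting interval 0.84 to 2.31). Gpr17 (ENSMUSG00000052229) had 4, 14, 6 and 1 footprints with vehicle and 0, 1, 1 and 0 with IFN-β, a ratio of 10.3 (95% counting interval 2.58 to 90.1). These intervals leave out the spread between libraries, and 14 of the 25 vehicle footprints of Gpr17 came from library 3. At 14 h Gpr17 had 0 footprints in 7 of 8 libraries and Sox10 had 3 to 8 footprints per library.

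A member's level also depended on the library number at 2 h. In both groups library 3 held the most Pdgfra, Cspg4 and Sox10 and the least Olig2 and Nkx2-2 of the 4 numbers. Vehicle library 3 had 14.3 CPM of Pdgfra against 3.13 to 3.98 in the other vehicle libraries, and 2.78 CPM of Sox10 against 0.79 to 1.15. Olig2 stood at 612 CPM in the same library against 703 to 806. These are the libraries with the high astrocyte sum, and the part of that difference in the members' levels was not tested.

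After 14 h none of the 6 tested members was called with edgeR, in a comparison that called 52.5% of the 12113 genes tested and 26.3% lower. At an unadjusted p under 0.05 the count was 1 (Pdgfra), and DESeq2 and limma-voom called 0. A member not called showed no detected change relative to the other genes, and its footprints per cell were not measured. Olig2 had 789, 834, 835 and 885 CPM with vehicle and 840, 873, 870 and 1033 CPM with IFN-β, in libraries 1 to 4. Its log2 difference was 0.11 (95% interval -0.03 to 0.26). Olig1 had 1210, 1368, 1483 and 1569 CPM with vehicle and 1353, 1454, 1523 and 1900 CPM with IFN-β, a log2 difference of 0.15 (95% interval -0.07 to 0.37). In both genes every IFN-β library was above the vehicle library of its number by a small margin, and the groups overlapped.

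With the number as a block, in a fit that called 62.8% of all genes at 14 h, Olig1 was called higher at 0.14 (adjusted p = 0.00211 in edgeR) and Olig2 at 0.11 (adjusted p = 0.00972). Nkx2-2 had 20.4 to 25.5 CPM with vehicle and 16.6 to 23.8 CPM with IFN-β, and its log2 difference of -0.18 (95% interval -0.44 to 0.08) was called in neither fit. Cspg4 had 159 to 198 CPM with vehicle and 170 to 198 CPM with IFN-β, a log2 difference of 0.05 (95% interval -0.11 to 0.21). Myrf, at 0.13 (95% interval -0.32 to 0.57), was not called either.

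Pdgfra was the member with the largest value at 14 h, on few reads. It had 10, 33, 24 and 17 footprints with vehicle (1.84, 3.34, 2.99 and 1.63 CPM) and 3, 13, 13 and 4 with IFN-β (1.01, 1.87, 1.95 and 0.44 CPM). The groups overlapped, and each IFN-β library was below its vehicle counterpart. The log2 difference was -0.94 (standard error 0.40, adjusted p = 0.0687 in edgeR). With the number as a block it was -0.94 and called lower (adjusted p = 0.00631). It was also past the threshold without IFN-β replicate 3 (-1.22, adjusted p = 0.0489) or vehicle replicate 4 (-1.12, adjusted p = 0.0372).

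Whether the response at 14 h differed from that at 2 h was tested by a time-by-treatment interaction fitted to the 16 footprint libraries. The libraries of 2 h and 14 h carry different sets of numbers. A difference between these sets drops out only if it acts alike on vehicle and IFN-β, which was not tested. Olig2 responded differently at 14 h than at 2 h by 1.10 (standard error 0.13, adjusted p = 1.19e-05 in edgeR), Olig1 by 0.70 (standard error 0.16, adjusted p = 0.00333) and Nkx2-2 by 0.86 (standard error 0.28, adjusted p = 0.0267). These 3 of the 6 tested members were called higher, while 30.9% of all 12508 genes were called and 15.4% called higher. The Nkx2-2 call was lost with limma-voom (0.78, adjusted p = 0.0522) and without vehicle 2 h replicate 6, IFN-β 14 h replicate 2 or vehicle 14 h replicate 4 (0.68 to 0.81, adjusted p = 0.0514 to 0.0569).

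Values for Myrf (0.45), Cspg4 (0.24) and Pdgfra (-0.84) were not called. With the number as a block, which called 55.5% of all genes, Cspg4 was called higher (0.25, adjusted p = 0.00165 in edgeR) and Pdgfra lower (-0.95, adjusted p = 0.0474). Pdgfra was likewise called lower without vehicle 2 h replicate 3 (-1.60, adjusted p = 0.0417) and without both libraries numbered 3 of 2 h (-1.36, adjusted p = 0.0420).

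Whether the loss of footprints at 2 h came with a loss of mRNA was asked of the total RNA, where reads were fewer. Olig2 had 115, 121, 74 and 101 counts with vehicle and 98, 53, 63 and 52 with IFN-β in libraries 2, 3, 5 and 6. After TMM scaling this was at most 15.1 CPM in the IFN-β libraries, below every vehicle library. The separation depends on that scaling. By total counts alone the groups overlap, since vehicle library 5 had 74 Olig2 counts among 7877753 and IFN-β library 2 had 98 among 5692950. The log2 difference was -0.82 with a 95% interval of -1.39 to -0.25, close to that of the footprints, but with an adjusted p of 0.343 in edgeR it was not called. Olig1, with 97 to 263 counts, had a log2 difference of -0.65 (95% interval -1.35 to 0.06) and overlapping groups. Nkx2-2, with 33 to 98 counts, had one of -0.48 (95% interval -1.22 to 0.26).

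edgeR called 0 of the 6 members tested in total RNA at 2 h and 0 of 4 at 14 h, where Myrf and Pdgfra had too few counts. The counts at an unadjusted p under 0.05 were 1 (Olig2) and 0, and DESeq2 and limma-voom called 0. Of all genes 0.799% and 6.3% were called in these comparisons. The median log2 difference of all genes in total RNA at 2 h was 0.04 with TMM and 0.23 when only total counts were used for scaling. At 14 h Olig1 had a total RNA log2 difference of 0.08, Olig2 of -0.12, Nkx2-2 of -0.43 and Cspg4 of -0.60, all with 95% intervals that include 0.

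Translation efficiency (TE) is the ratio of footprints to total RNA, and its change was tested as a library-type-by-treatment interaction, called at an adjusted p under 0.1. No member was called by edgeR at 2 h or 14 h, against 0.815% and 8.45% of all genes. At an unadjusted p under 0.05 the counts were 0 and 1 (Cspg4), and DESeq2 and limma-voom called 0. The TE change of Olig2 at 2 h was -0.12 (95% interval -0.73 to 0.50) and that of Olig1 0.14 (95% interval -0.67 to 0.95). Nkx2-2 had -0.49 (95% interval -1.35 to 0.37). These intervals hold changes of either sign. At 14 h Cspg4 had 0.60 (95% interval 0.01 to 1.18, adjusted p = 0.265), which passed the threshold only without vehicle replicate 4 (0.77, adjusted p = 0.0921 in edgeR).

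**Figure D3:**
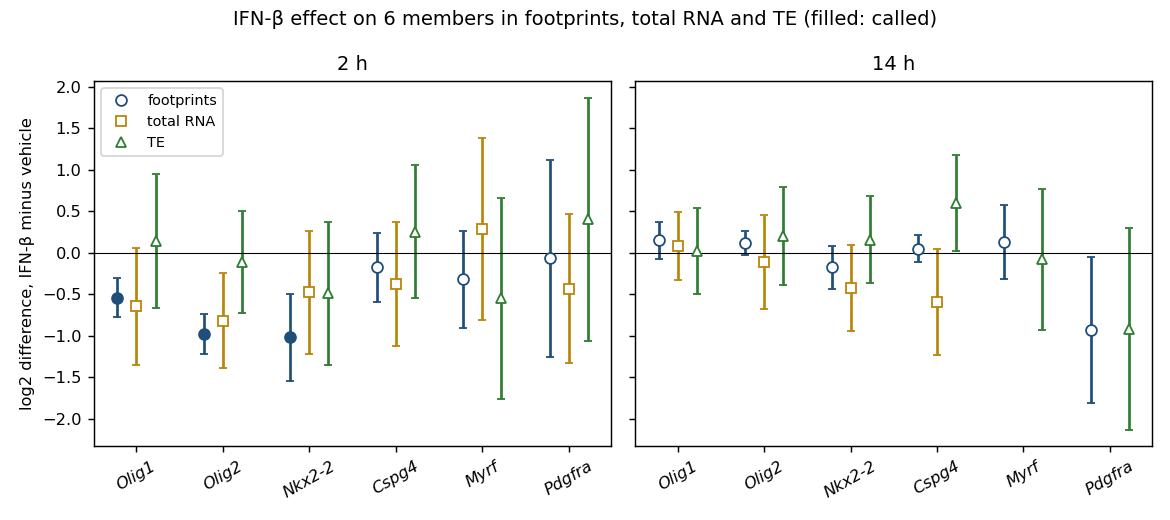
Log2 difference of IFN-β minus vehicle with its 95% interval for 6 members in footprints (circles), total RNA (squares) and TE (triangles), at 2 h on the left and 14 h on the right. Filled symbols are called, which holds for the 2 h footprints of Olig1, Olig2 and Nkx2-2. Total RNA of Myrf and Pdgfra at 14 h had too few counts and is not drawn.

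The members also differed in how many total RNA reads stood behind a footprint. Footprints were counted in the CDS and total RNA over the whole gene, so this number compares a gene with other genes and is no absolute efficiency. Over 5611 genes with at least 50 footprints on average at 2 h and no gene on the other strand, the median was 3.07 total RNA counts per 100 footprints. Olig1 had 1.42, Olig2 2.09 and Cspg4 2.92, all below the median, although Olig1 has a gene on the other strand and is not among those genes. Pdgfra had 26.5, Sox10 27.8, Nkx2-2 56.5 and Myrf 66.0. These 4 are not ranked among those genes, since Pdgfra, Sox10 and Myrf had fewer than 50 footprints on average, the denominator here, and Nkx2-2 has a gene on the other strand. At 14 h, where the median over 5626 genes was 0.98, Olig1 had 0.83 and Olig2 0.86, while Cspg4 was above the median at 2.18. Nkx2-2, Myrf and Pdgfra had 40.2, 30.6 and 43.6. Pdgfra, Nkx2-2 and Olig1 are overlapped by antisense genes in the annotation, while Olig2, Cspg4, Sox10 and Myrf are not.

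Because Olig2 and Nkx2-2 fell together at 2 h, the bases before their start sites were searched for elements of interferon signalling. RefSeq promoter windows were at hand for 4 of the 8 members, Olig2, Nkx2-2, Pdgfra and Cspg4. The windows of Olig2 and Nkx2-2 are shown 5′ to 3′ up to the first annotated exon (build GRCm38.p6), for Nkx2-2 from a start that lies inside the longer annotated gene, in lower case since no searched motif was found.
Olig2, chr16:91225300-91225456, plus strand: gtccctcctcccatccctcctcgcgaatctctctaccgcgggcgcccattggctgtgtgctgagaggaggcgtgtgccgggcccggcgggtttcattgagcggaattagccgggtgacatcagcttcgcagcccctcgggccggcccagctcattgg
Nkx2-2, chr2:147186456-147186652, minus strand: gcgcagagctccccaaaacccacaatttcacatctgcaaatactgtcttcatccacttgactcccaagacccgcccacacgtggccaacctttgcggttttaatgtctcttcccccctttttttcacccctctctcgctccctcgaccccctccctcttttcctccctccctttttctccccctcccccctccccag
The motifs were the interferon-stimulated response element, spelled TTTCNNTTTC, and the gamma-activated site, spelled TTCNNNGAA, on both strands of the 250 bases before the start. They were in 2.98% and 7.02% of 32851 promoters, and in none of the 4 members' windows. This says only that these letters are not in these windows.

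The genes whose footprints most resembled those of a member were sought over the 16 footprint libraries, as Pearson's r of log2 CPM centred within each time, among 9943 genes with at least 50 counts on average at both times. All points share their libraries, depth and treatment, and the values are descriptions. Nearest to Olig2 were Pnmal1 (r = 0.961), Fzd10 (0.951), a Wnt receptor, and Tacc2 (0.95). Their log2 differences at 2 h were -1.36, -1.36 and -1.33, and at 14 h 0.26, -0.08 and -0.14. Nearest to Olig1 were Cxxc5 (0.921), Vangl2 (0.910), a planar polarity protein, and Rfx4 (0.907). For Nkx2-2 they were Mmp15 (0.943), Ccser2 (0.925) and Spsb4 (0.916), and for Cspg4 Adamts12 (0.881), Acss1 (0.861) and Zfp426 (0.856). No member was among the nearest 3 of another, and the remaining 4 members had too few counts to be compared.

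Other genes of the lineage were read from 3 lists that do not hold the members. Among 17 genes known from oligodendrocyte progenitors 12 were tested at 2 h, and 0 were called higher and 2 lower, with a median of -0.13 against -0.02 over all genes. The 2 were Sox8, an SRY-related factor, at -1.42 (standard error 0.34, adjusted p = 0.0374 in edgeR) and Traf4, an adaptor protein, at -0.96 (standard error 0.09, adjusted p = 1.49e-04). Sox8 ranged from 222 to 482 CPM with vehicle and from 76.1 to 195 CPM with IFN-β, without overlap. Its call was lost without 7 of the 8 libraries left out in turn, all but IFN-β replicate 3. The Traf4 call held in every alternative tried. With the number as a block 0 were higher and 5 lower, adding Cspg5, Epn2 and Dll3, beside 29.2% of all genes called in that fit.

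At 14 h the same list had 4 genes called higher and 1 lower of 12, no larger a share than the 52.5% of all genes. Sox8 was now higher, at 0.59, as were Cspg5 (0.38) and Bcan (0.29), both proteoglycans of the brain matrix, and Traf4 (0.21). Ptprz1, a receptor phosphatase, fell by 0.32. The interaction, which called 6 of 12 higher and 1 lower with the block, called 3 higher and 0 lower without it: Sox8 (2.02, standard error 0.36, adjusted p = 5.78e-04 in edgeR), Traf4 (1.18, adjusted p = 1.64e-06) and Epn2 (0.68, adjusted p = 0.0200). Of all genes the interaction called 30.9% without the block, 15.4% higher, and 55.5% with it. Sox8 and Traf4 shared with Olig1, Olig2 and Nkx2-2 a call lower at 2 h and a call in the interaction. Gli2, of the regulators below, shared both calls too. The interaction contains the 2 h difference, so the calls are not independent of each other.

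Of 22 genes of myelinating oligodendrocytes 12 had enough footprints at 2 h, and 1 was called higher and 0 lower. It was Tcf7l2, a Wnt effector that is also expressed outside this lineage, at 0.41 (adjusted p = 0.0338 in edgeR), a call lost in 8 of 16 alternatives. With the number as a block, which called 29.2% of all genes at 2 h, 3 were higher and 5 lower. Defining myelin genes such as Mog, Mag and Mbp had too few reads for a test. At 14 h 3 of 12 were higher and 2 lower, again no larger a share than among all genes. Cnp, an enzyme of myelin membranes, rose by 1.20 (standard error 0.10, adjusted p = 4.35e-07) to 250 ± 34.0 CPM from 109 ± 12.1 CPM (SD, n = 4 each). Tcf7l2 rose by 0.40 and the connexin Gjc3 fell by 0.95. The others, Aspa (1.88) and Ugt8a (-1.95), had means under 50 counts and were named after their values were seen. The interaction called 2 of 13 in edgeR, Cnp at 1.47 (adjusted p = 0.00147) and Aspa at 1.79 (adjusted p = 0.0316), both higher, and 3 higher and 3 lower with the block. The shares of all genes called were 30.9% without the block, 15.4% higher, and 55.5% with it.

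Regulators of the lineage, a list of 22 ligands, signalling proteins, transcription factors and chromatin proteins, had 21 tested at 2 h, with 1 higher and 1 lower. Gli2, an effector of hedgehog signalling, was lower at -1.20 (standard error 0.24, adjusted p = 0.0133 in edgeR), and Zeb2, a zinc-finger factor, was higher at 0.46 (adjusted p = 0.0401). Gli2 was no longer called when IFN-β replicate 2 or 5 was left out, nor was Zeb2 in 8 of 15 alternatives. Pdgfa, a ligand of Pdgfra, stood at 0.53 and was not called in edgeR without a block (adjusted p = 0.0657), but was called by DESeq2, as was the Notch target Hes5. With the number as a block, which called 29.2% of all genes at 2 h, 4 regulators were higher and 8 lower in edgeR. Among them were Pdgfa (0.51, adjusted p = 0.00229), the hedgehog receptor Ptch1 (-0.79, adjusted p = 2.88e-09) and the Notch target Hes1 (-0.54, adjusted p = 1.13e-06). Without the block Ptch1 and Hes1 stood at -0.83 and -0.54 and were not called.

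At 14 h 5 of 19 regulators were higher and 5 lower, near the background of that comparison. The histone methyltransferase Ezh2 fell by 1.24 (standard error 0.07, adjusted p = 7.54e-09 in edgeR), the hedgehog factor Gli3 fell by 0.69, and the deacetylase Hdac2 fell by 0.55. Pdgfc, another ligand gene of the PDGF family, and Tcf3 were also lower. Ptch1 (0.37), the chromatin remodeller Chd7 (0.31), Zeb2 (0.30), Hes1 (0.23) and Chd8 (0.15) were higher. The interaction called 5 of 21 higher, namely Ptch1 (1.22), Gli2 (1.05), Hes1 (0.78), Tcf12 (0.27) and, on fewer counts, Hes5 (2.73), and 2 lower, Ezh2 (-1.21) and Hdac2 (-0.54). With the block it called 7 higher and 5 lower. These counts stand beside 30.9% of all genes called without the block, 15.4% higher, and 55.5% with it.

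In total RNA Zeb2 at 14 h (0.90, adjusted p = 0.0189 in edgeR) was the only call over these 3 lists, while DESeq2 called Pcdh15 in addition and limma-voom Hdac1. Of all genes 6.3% were called in total RNA at 14 h. Zeb2 has 4 genes on the other strand, among them Zeb2os, so its whole-gene counts may hold reads of these. At 2 h edgeR called 0 of the 35 genes tested in total RNA and 0 of 49 in TE, as did DESeq2 and limma-voom. At an unadjusted p under 0.05 there were 3 in total RNA (Sox8, Tnr and Traf4) and 1 in TE (Tnr). At 14 h the TE of Cnp (0.83) and Tcf7l2 (0.62) and of the regulators Hdac1 (1.11) and Smarca4 (0.62) was called higher, and that of Ezh2 (-1.57), Gli3 (-1.12) and Zeb2 (-0.64) lower. The limit on Zeb2 counts holds for its TE too, and 8.45% of all genes were called in TE at 14 h.

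**Figure D4:**
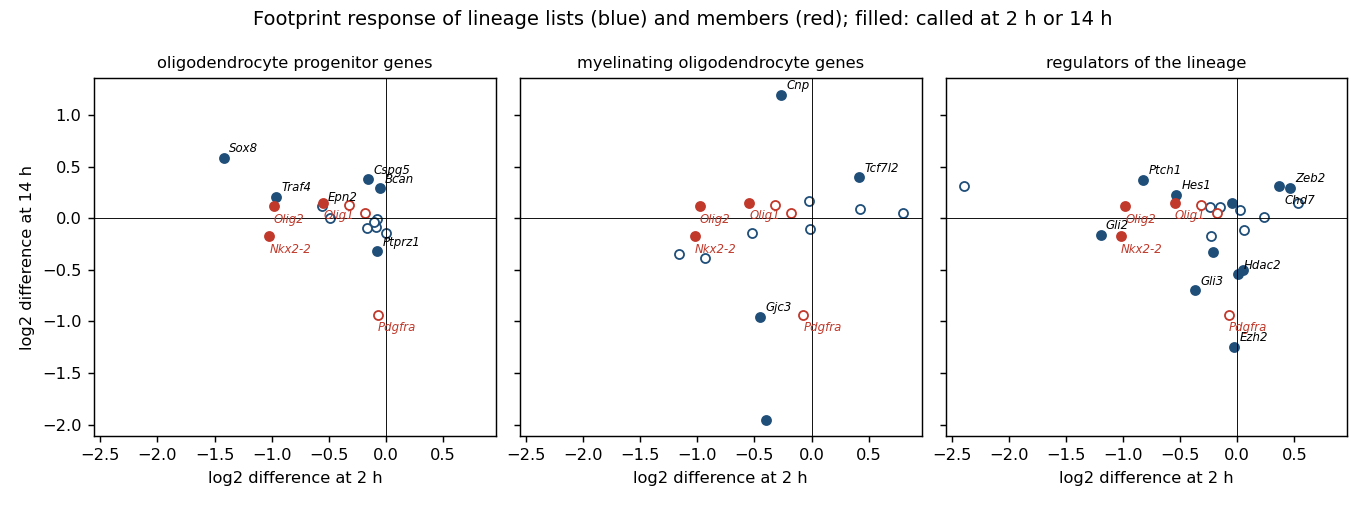
Footprint log2 difference of IFN-β minus vehicle at 2 h (horizontal) and 14 h (vertical) for the genes of 3 lists that were tested at both times (blue), with the 6 tested members repeated in each panel (red) and filled symbols for genes called at either time. Olig1, Olig2 and Nkx2-2 lie left of 0 and close to 0 on the vertical axis, Sox8 lies in the upper left, and Ezh2 and Cnp lie far from 0 on the vertical axis, called at 14 h and not at 2 h.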

How the data were processed

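The deposited values are raw counts per gene. According to the submitters' processing notes and methods, the authors trimmed reads with Trim Galore 0.4.4, mapped them with Bowtie 0.12.7 to the mm10 transcriptome (GRCm38), removed duplicates, and counted footprints in the CDS and total RNA over the whole gene. Both footprint and both total RNA tables were used whole, and no column was left out.

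Counts were tested in R 4.3.3 with edgeR 4.0.16 (TMM, quasi-likelihood test, two-sided, Benjamini-Hochberg adjustment over all genes tested, at least 10 counts in at least 4 libraries). For TE, TMM was applied within each kind of library. DESeq2 1.42.0, limma 3.58.1, other filters and scalings, and each library left out in turn were alternatives. The fits were also run on simulated data, and the outcome is not reported here. Other values were computed in Python 3.11.15 (scipy 1.17.1, numpy 2.4.6, pandas 2.3.3) and drawn with matplotlib 3.10.9. Positions come from GENCODE M21. The members, lists and comparisons were chosen with earlier results of these data known. Some genes of the lists are not reported here.

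Replicate numbers paired the footprint libraries: after removal of group means, libraries of the same number correlated at 0.473 to 0.866 at 2 h and 0.264 to 0.533 at 14 h across genes. Total RNA libraries mostly did not pair, with same-number correlations of -0.658 to 0.394 at 2 h and -0.087 to 0.533 at 14 h. Only for replicate 2 at 2 h and replicate 1 at 14 h did the same number correlate best. The block was an additional fit because the study's methods state none. For the footprints the fit without the block thus leaves this pairing out. All members were named and, per list and footprint comparison, the 3 genes called highest and the 3 called lowest by log2 difference at a mean of 50 counts or more. Other genes were named after their values were seen. Counting intervals are exact at the 95% level. The p-values measure the spread between these cultures.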

Additional observations from a re-analysis of the deposited data

Results flagged for a closer look

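Of 44 groups of 4 libraries of tested members, 5 held a library whose gap to the nearest of the others exceeded Dixon's 95% critical value as a share of the group's range, and chance gives about 1 in 20. In the footprints these were Pdgfra in vehicle 2 h replicate 3 (14.3 CPM), Olig2 in IFN-β 14 h replicate 4 (1033 CPM, high) and Cspg4 in IFN-β 14 h replicate 4 (170 CPM, low). In total RNA they were Olig1 in IFN-β 14 h replicate 3 (32.5 CPM, low) and Pdgfra in vehicle 2 h replicate 2 (3.77 CPM, high).

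The interaction test of edgeR called 30.9% of all genes, and its libraries of 2 h and 14 h carry different sets of numbers. In it the response of the footprints differed between 14 h and 2 h for Olig1 (0.70), Olig2 (1.10) and Nkx2-2 (0.86). Among the other named genes of the lineage it did so for Sox8 (2.02), Traf4 (1.18), Epn2 (0.68), Cnp (1.47), Ptch1 (1.22), Gli2 (1.05), Hes1 (0.78), Tcf12 (0.27) and, on few counts, Hes5 (2.73) and Aspa (1.79), and, with a lower value at 14 h, for Hdac2 (-0.54) and Ezh2 (-1.21).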

How the results depend on the processing

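Over all alternatives tried, 636 values of single members were recomputed, and 611 kept their side of the threshold, 14 lost their call, 11 gained one and 0 called values reversed, while 24 values that were never called changed sign. Olig2 kept its call at 2 h and in the interaction under every alternative. Leaving out genes with a gene on the other strand removes Olig1, Nkx2-2 and Pdgfra from the fit, so 1 member was called lower at 2 h in place of 3, and 1 higher in the interaction in place of 3. With the replicate number as a block 1 member was called lower and 2 higher at 14 h in place of 0, and 1 was called lower in the interaction in place of 0. In total RNA and TE the replicate block left 0 members called. Leaving out single libraries gave 1 to 3 members called lower at 2 h (1 without IFN-β replicate 2 or 5), 0 to 1 lower at 14 h, 0 to 1 higher in TE at 14 h, and 0 to 1 lower in the interaction. Without both libraries numbered 3 at 2 h, chosen after seeing the data, 1 was called lower in the interaction.

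Counts over all genes moved more. Footprint calls at 2 h were 878, with 3538 under the block, 482 without genes that have one on the other strand, 1671 without both libraries numbered 3 and 517 to 953 without single libraries. At 14 h they were 6361 and, without genes that have one on the other strand, 3545. Interaction calls were 3867, 6944 under the block and 2167 without such genes. Total RNA calls at 2 h were 93, 169 with DESeq2, 174 with no filter, 44 with a mean of at least 50 counts, 28 without genes that have one on the other strand and 30 to 74 without single libraries. At 14 h they were 474, 269 with total counts alone, 247 with that mean, 95 without such genes and 171 to 450 without single libraries. TE calls at 2 h were 115, 51 with total counts alone, 250 with DESeq2 (259 in its likelihood ratio test), 242 with limma-voom, 27 with that mean, 46 without such genes and 70 to 149 without single libraries. TE calls at 14 h were 1136, 380 with that mean and 374 without such genes. With total counts alone as scaling, the median change in TE at 2 h over all genes was -0.38 in place of -0.04. The causes were not tested. In total RNA Olig2 rested on 52 to 121 counts per library at 2 h and 14 to 91 at 14 h, against 1596 to 6711 and 2508 to 9487 footprints.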
